A study of Rattus norvegicus with 12 samples.

Results

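Glutathione transferases and the enzymes that make glutathione were followed across 4 neuronal populations of the untreated rat brain. The group was fixed by name as 10 genes, *Gsta1*, *Gsta4*, *Gstm1*, *Gstm5*, *Gstp1*, *Gstt1*, *Mgst1*, *Gclc*, *Gclm* and *Gss*, and every probe set annotated to them was taken, which gave 11 of the 15923 probe sets on the array. All 10 genes had a probe set and *Gclc* had 2. Neurons were lifted by laser capture microdissection from frozen sections of Fisher 344/BN F1 rats aged 6 months. None of the rats had been exposed to an oxidant or any other treatment. The groups were the CA1 pyramidal layer and the cerebellar granule cell layer (CbG), which form the class that the study calls vulnerable to oxidative stress (VUL, 6 arrays), and the CA3 pyramidal layer and layers IV-VI of the frontal cortex (CTX), which form the resistant class (RES, 6 arrays). The 12 arrays hold 3 per region, labelled as biological replicates 1 to 3. Arrays with the same replicate number were taken as 1 rat, which no label states. Counts of rats below are therefore counts of same-numbered arrays. How many of all probe sets had the same sign in 3 of 3 rats, or groups without overlap, was not counted. The design asks which of these genes differ between VUL and RES neurons before any stress is applied.

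Glutathione is a small thiol peptide that cells use to reduce peroxides and to trap reactive compounds. It is built in a pair of steps, the first and rate-limiting one by glutamate-cysteine ligase, whose catalytic and modifier subunits are encoded by *Gclc* and *Gclm*, and the last by glutathione synthetase, encoded by *Gss*. The transferases join glutathione to electrophiles such as the aldehydes that form when lipids are oxidized, and fall into the soluble alpha, mu, pi and theta classes and a family bound to membranes. In the brain, astrocytes and oligodendrocytes are known to hold much of the transferase protein, and neurons depend on astrocytes for precursors of glutathione. Many of these genes are known targets of NRF2, a transcription factor that binds the antioxidant response element.

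Values are MAS5 signals, the brightness of a probe set on a linear scale that the authors set to 1 target intensity per array. Differences are log2 differences after centring each array on its median, with the standard error (SE) of a limma fit in which the regions were the groups and the rats the blocks. A difference passed at a Benjamini-Hochberg adjusted p under 0.05 over all 7535 probe sets tested and at least 1.5-fold. VUL minus RES averages CA1 with CbG and CA3 with CTX before the subtraction. Probe sets were tested if 8 or more of the 12 arrays held them above the median signal of all probe sets. Of the 11 probe sets, 6 passed this filter, those of *Gsta1*, *Gsta4*, *Gstm1*, *Gstm5* and *Gstp1* and 1 of the 2 of *Gclc*. The other 5 (*Gstt1*, *Mgst1*, *Gclm*, *Gss* and the second probe set of *Gclc*) were dimmer and are given from a fit without the filter.

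Of the 12 arrays, 2 stood against their labels, those labelled CA3 replicate 3 and CbG replicate 3. The summed signal of 6 cerebellar granule cell markers was 24225.2 and 31788.2 in the other 2 CbG arrays and 2157.9 in the array labelled CbG replicate 3. It was 2059.4 and 2101.9 in the other 2 CA3 arrays and 27287.8 in the array labelled CA3 replicate 3. For 5 forebrain pyramidal cell markers the array labelled CbG replicate 3 had 24108.6 and the other 2 CbG arrays 1193.0 and 1233.7, while the array labelled CA3 replicate 3 had 1370.7 and the other 2 CA3 arrays 20669.4 and 24119.4. Such sums weigh the brightest markers most. Of the granule cell markers 3 of 6 passed the filter and of the pyramidal markers 4 of 5, with *Zic1* and *Tbr1* below the median in all 12 arrays. Over all probe sets the mean correlation of arrays of 1 region was 0.904 as labelled (lowest 0.844) and 0.928 (lowest 0.907) when both labels were exchanged. Control probe sets at both ends of a transcript gauge RNA integrity. Their log2 ratio, 3′ end over 5′ end, ran from 3.85 to 6.52 for β-actin and from 1.31 to 2.76 for GAPDH. The GAPDH median was highest in CTX (2.47) and lowest in CA1 (1.74). For β-actin the order was another, with the highest median in CA1 (4.76) and the lowest in CA3 (4.01), beside 4.55 in CTX. The part of RNA integrity in the differences was not tested. The tests of the 10 genes are therefore given with the arrays as labelled and with these 2 labels exchanged, and signals and marker sums as labelled unless the exchange is named. The exchange rests on the values and not on any label. It leaves untouched all comparisons of CA1 with CTX in their size, and also the difference between the CA1 minus CA3 and the CbG minus CTX differences, in which both arrays enter with the same sign.

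Promoter sequences from RefSeq (build GRCr8) were at hand for 9 of the 10 genes, all but *Gstt1*. The core of the antioxidant response element, TGACNNNGC on either strand, was searched from 250 bases before to 50 bases after the start of each gene. It was found in 4 of the 9 promoters (44.4%), against 12.1% of the 33469 promoters in the table and 16 of 67 other genes of the pathway (23.9%). *Gstp1* held 1 match that begins 61 bases before the start and *Gclm* 1 that begins 172 bases before it, on the opposite strand. *Gstm5* held 2, which begin 113 and 53 bases before the start, and *Gsta1* 1 at base 31 of the transcribed part. *Gsta4*, *Gstm1*, *Mgst1*, *Gclc* and *Gss* held none. A match describes the letters and is not a measured binding site. The 250 bases before the start are shown 5′ to 3′ for the 4 transferases whose regional differences were largest or most often passed, with matches in capitals, at chr1:210769706-210769955 (minus strand) for *Gstp1*, chr2:198219519-198219768 (plus strand) for *Gstm5*, chr9:31216533-31216782 (minus strand) for *Gsta1* and chr8:87947015-87947264 (plus strand) for *Gsta4*.
Gstp1: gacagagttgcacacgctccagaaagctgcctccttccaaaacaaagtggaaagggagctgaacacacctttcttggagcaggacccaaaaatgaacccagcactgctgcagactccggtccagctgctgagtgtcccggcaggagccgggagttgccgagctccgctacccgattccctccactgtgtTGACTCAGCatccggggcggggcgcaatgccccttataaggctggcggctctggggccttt
Gstm5: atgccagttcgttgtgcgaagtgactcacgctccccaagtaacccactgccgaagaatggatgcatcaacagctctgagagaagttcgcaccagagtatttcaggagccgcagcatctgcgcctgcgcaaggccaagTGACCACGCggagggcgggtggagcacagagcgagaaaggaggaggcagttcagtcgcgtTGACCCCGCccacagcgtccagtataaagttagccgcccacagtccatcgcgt
Gsta1: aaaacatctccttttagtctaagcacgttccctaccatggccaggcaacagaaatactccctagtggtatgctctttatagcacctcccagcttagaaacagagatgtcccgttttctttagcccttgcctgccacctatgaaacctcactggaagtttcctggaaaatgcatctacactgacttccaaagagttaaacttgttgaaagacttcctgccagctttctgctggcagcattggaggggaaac
Gsta4: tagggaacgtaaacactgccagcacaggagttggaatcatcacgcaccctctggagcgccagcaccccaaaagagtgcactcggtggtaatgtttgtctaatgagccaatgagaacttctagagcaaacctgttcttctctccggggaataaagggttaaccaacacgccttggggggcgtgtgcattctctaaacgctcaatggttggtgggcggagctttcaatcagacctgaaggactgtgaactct

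With the arrays as labelled, 0 of the 6 tested probe sets passed in VUL minus RES, where 0% of all probe sets passed as well, 0 in CA1 minus CA3 (1.30% of all) and 1, *Gstp1*, in CbG minus CTX (0.624% of all). At an unadjusted p under 0.05 the same limma fit gave 1 of the 6 in VUL minus RES, *Gclc*, against 743 of 7535. With the 2 labels exchanged, *Gsta1* and *Gsta4* were lower in VUL than in RES neurons (2 of 6, with 18.5% of all probe sets passed). *Gsta4* and *Gstm5* were lower and *Gstp1* higher in CA1 than in CA3 neurons (3 of 6, 13.5% of all), and *Gsta1* and *Gstp1* were lower in CbG than in CTX neurons (2 of 6, 34.0% of all). A difference among the 4 regions in either direction (F test) passed for 1 probe set as labelled, *Gstp1*, with 3.20% of all, and for 6 of 6 after the exchange, with 67.9% of all. Of the other 4 pairs of regions as labelled, CA1 minus CbG had 0 of 6 (1.25% of all), CA1 minus CTX 1 (6.61%), CbG minus CA3 0 (0%) and CA3 minus CTX 1 (1.94%). After the exchange these were 4 (40.6%), 4 (34.1%), 3 (45.5%) and 3 (36.3%). All pairs that name a region share its arrays. Each call was repeated under 9 other settings of the processing and in 15 fits that left out a rat or an array. None of the 3 calls between regions or classes as labelled held in all of them (0 of 3), and after the exchange 12 of 21 did. These 12 were *Gsta1* in VUL minus RES, CbG minus CTX and CbG minus CA3, *Gsta4* in VUL minus RES, CA3 minus CTX, CA1 minus CA3 and CbG minus CA3, *Gstm5* in CA1 minus CbG, *Gstp1* in CbG minus CTX, CA1 minus CbG and CA3 minus CTX, and *Gclc* in CA1 minus CTX. How often the calls of all probe sets held in the same fits was not computed, so these counts do not set the members apart from the array. The 21 calls come from 6 probe sets in comparisons that share arrays. The median VUL minus RES difference of the 6 was -0.30 as labelled, beside 0.08 over all 7535, and -0.38 after the exchange, beside 0.08.

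**Figure D1:**
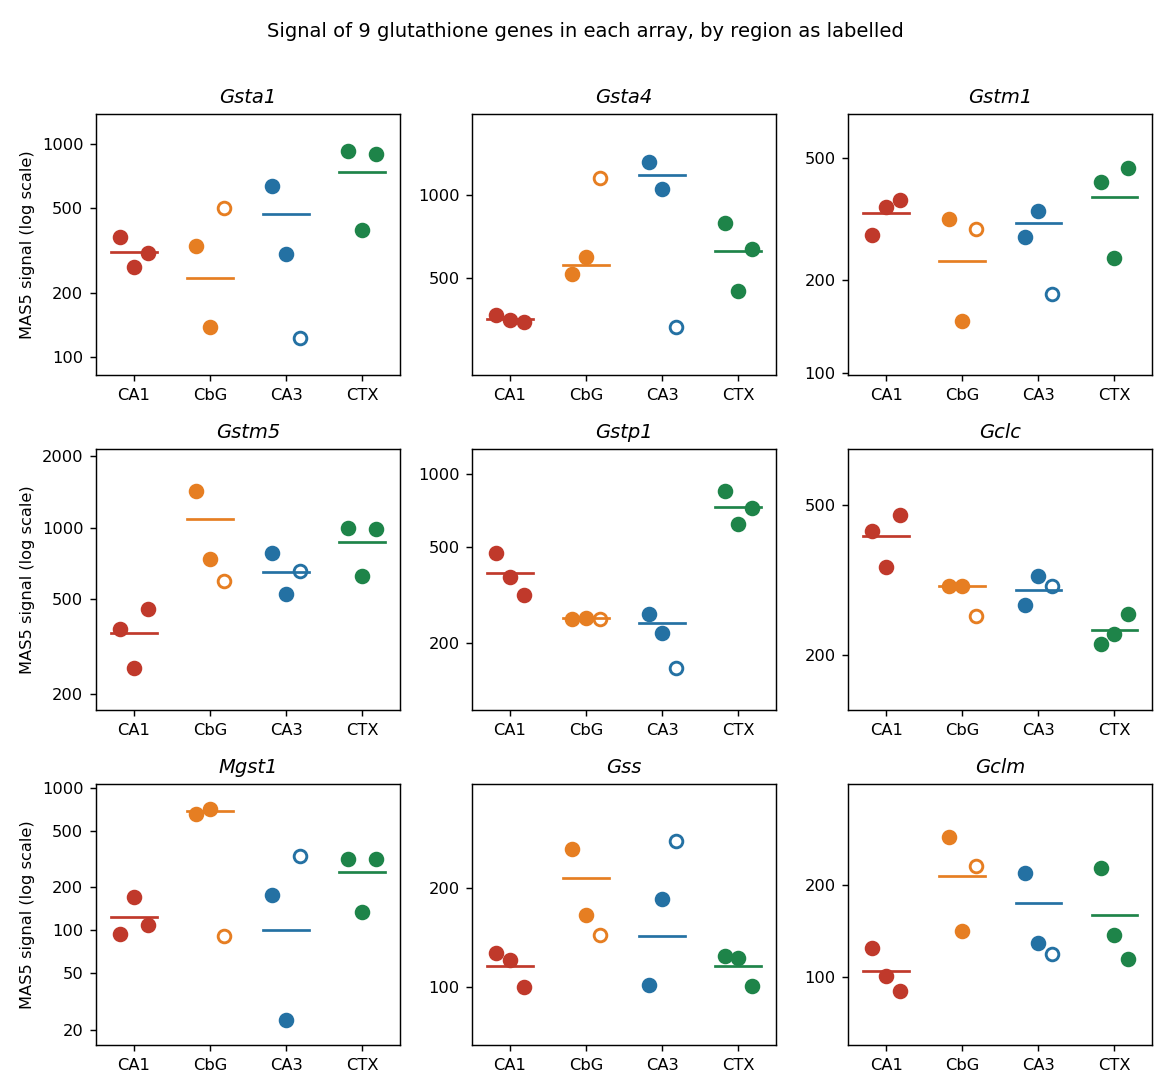
MAS5 signal on a log axis of 9 of the 10 genes in each of the 12 arrays, by region as labelled, with VUL regions (CA1 and CbG) on the left and RES regions (CA3 and CTX) on the right. Open circles are the 2 doubtful arrays, 1 each in CbG and CA3, and lines are means of the filled circles. *Gstp1* lay at or below 471.8 in all arrays of CA1, CbG and CA3, against 619.7 to 848.8 in CTX.

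*Gsta1* encodes an alpha class transferase that conjugates electrophiles and also reduces lipid hydroperoxides. Its signal was 365.0, 264.9 and 309.8 in CA1 and 332.8, 138.7 and 500.7 in CbG, against 633.2, 305.4 and 123.9 in CA3 and 923.5, 396.0 and 895.4 in CTX. The last of the 3 values of CbG and of CA3 come from the 2 doubtful arrays, here and in each list below. Mean signals were 313.2 ± 50.1 in CA1, 324.1 ± 181 in CbG, 354.2 ± 258 in CA3 and 738.3 ± 297 in CTX as labelled (SD, n = 3 each). The exchange brought CbG to 198.5 ± 117 and CA3 to 479.8 ± 165, and the order CTX, CA3, CA1, CbG.

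As labelled, the VUL minus RES difference of *Gsta1* was -0.50 (SE 0.40) and did not pass (limma, adjusted p = 0.782). With the labels exchanged it was -1.17 (SE 0.16), or 0.445-fold (adjusted p = 0.000198), and without the 2 arrays -1.05 (adjusted p = 0.000679). The probe set of *Gsta1* is among those that the study selected on these same arrays for a VUL and RES difference, so its direction is not independent evidence. Within the pairs, CbG minus CTX was -1.10 (SE 0.57, adjusted p = 0.391) as labelled and -1.76 (SE 0.23, adjusted p = 7.44e-05) after the exchange. CbG was the lower in 3 of 3 rats either way, and only after the exchange did the 2 groups not overlap. CA1 minus CA3 was 0.09 (SE 0.57) as labelled and -0.57 (SE 0.23, adjusted p = 0.129) after it, with CA1 lower in 2 and 3 of 3 rats. After the exchange, CA1 minus CbG passed (0.93, adjusted p = 0.0052), as did CA1 minus CTX (-0.83, adjusted p = 0.0141) and CbG minus CA3 (-1.51, adjusted p = 0.000141), while CA3 and CTX did not differ beyond their spread (-0.26, 95% interval -0.76 to 0.24). As labelled these 3 were 0.27, -0.83 and -0.18 and did not pass (adjusted p = 0.806, 0.372 and 0.933). After the exchange, CA1 minus CbG was lost without the 2 arrays (0.62, adjusted p = 0.0541) and without rat 3 (0.0514), and CA1 minus CTX without the filter (0.0833), without rats 1 or 3 (0.117 and 0.0734) and without CA1 replicate 1 or CTX replicate 3 (0.0821 and 0.0984). Alpha class genes, like those of the mu class, have close relatives in the genome, and a probe set may read more than 1 of them.

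*Gsta4* encodes the alpha class enzyme with the highest known activity toward 4-hydroxynonenal, an aldehyde released from oxidized lipids. CA1 arrays were close to each other at 366.6, 351.9 and 345.0, and CbG arrays had 516.4, 595.5 and 1156.1. CA3 arrays had 1319.8, 1051.9 and 331.4 and CTX arrays 789.8, 447.2 and 634.2. The 3 highest signals of all 12 arrays were thus those of CA3 replicates 1 and 2 and of the array labelled CbG replicate 3, and the lowest was that of the array labelled CA3 replicate 3. After the exchange the means were 354.5 ± 11.0 in CA1, 481.1 ± 136 in CbG, 1175.9 ± 135 in CA3 and 623.7 ± 172 in CTX (SD, n = 3 each).

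The CA1 minus CA3 difference of *Gsta4* was -1.14 (SE 0.55, limma, adjusted p = 0.465) as labelled, with CA1 lower in 2 of 3 rats. After the exchange it was -1.73 (SE 0.22), or 0.301-fold (adjusted p = 0.000238), with CA1 lower in 3 of 3 rats and no overlap, and without the 2 arrays it was -1.79 (adjusted p = 0.000998). CbG minus CTX was 0.40 (SE 0.55, adjusted p = 0.765) as labelled and -0.20 (95% interval -0.68 to 0.29, adjusted p = 0.526) after the exchange. VUL minus RES did not pass as labelled (-0.37, SE 0.39, adjusted p = 0.835) and was -0.96 (SE 0.16, adjusted p = 0.000623) after the exchange. The CA1 minus CA3 difference was smaller than the CbG minus CTX difference by 1.54 in both arrangements, which passed after the exchange (interaction -1.54, SE 0.32, adjusted p = 0.00331) and not as labelled (SE 0.77, adjusted p = 0.353). In the order CA3, CTX, CbG, CA1 after the exchange, CA3 stood above CTX (1.27, adjusted p = 0.000961), whereas the neighbours CbG and CTX, and CA1 and CbG (-0.26, 95% interval -0.74 to 0.22), did not differ beyond their spread.

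*Gstm1* encodes a mu class transferase that is known in rodent brain mainly from astrocytes. Its signal was 280.4, 346.0 and 366.7 in CA1 and 316.1, 147.2 and 294.9 in CbG, against 277.0, 336.4 and 180.4 in CA3 and 418.3, 236.3 and 465.8 in CTX, and all 4 regions overlapped. No comparison of its regions passed as labelled. The VUL minus RES difference was -0.03 (SE 0.27) as labelled and -0.26 (95% interval -0.66 to 0.15, limma, adjusted p = 0.321) after the exchange. After the exchange CbG had the lowest mean, 214.6 ± 89.5 (SD, n = 3). CA1 minus CbG was then 0.83 (SE 0.27, adjusted p = 0.021) and CbG minus CA3 -0.72 (SE 0.27, adjusted p = 0.0386), both of which passed, but neither passed without the 2 arrays (adjusted p = 0.113 and 0.0855). The CA1 minus CbG call was lost in 3 of 9 other settings and in 6 of 15 fits without a rat or an array. For CbG minus CA3 these were 6 of 9 and 5 of 15.

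*Gstm5*, of the same class, was lowest in CA1. CA1 arrays had 374.4, 257.7 and 455.7 and CbG arrays 1429.3, 741.0 and 598.4, against 779.9, 529.1 and 659.5 in CA3 and 995.4, 628.3 and 989.0 in CTX. No CA1 array reached the lowest array of any other region, in either arrangement. CA1 minus CA3 was -0.89 (SE 0.27, limma, adjusted p = 0.205) as labelled and passed after the exchange at -0.84 (SE 0.23, adjusted p = 0.0267), lower in 3 of 3 rats. After the exchange CA1 minus CbG was -1.19 (SE 0.23, adjusted p = 0.000798) and CA1 minus CTX -0.95 (SE 0.23, adjusted p = 0.00619), against adjusted p-values of 0.0846 and 0.0709 as labelled. CbG, CTX and CA3 did not differ beyond their spread. The CA1 minus CA3 call after the exchange was lost in 2 of 9 other settings, among them without the rat block (adjusted p = 0.0618). It was also lost in 6 of 15 fits without a rat or an array (adjusted p up to 0.242). These include the fits without any 1 of CA1 replicates 1 and 2 and CA3 replicates 1 and 2 (adjusted p = 0.14, 0.126, 0.0896 and 0.121).

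*Gstp1* encodes the pi class transferase, which in rodent brain is known from oligodendrocytes and which also restrains stress-activated kinases. Of the 6 tested probe sets it alone passed in the F test and in CbG minus CTX with the arrays as labelled. CA1 arrays had 471.8, 373.9 and 315.9 and CbG arrays 251.8, 254.2 and 249.9, against 264.1, 219.1 and 157.9 in CA3 and 848.8, 619.7 and 724.7 in CTX. CA1 and CTX each lay apart from all other regions whichever way the doubtful arrays were assigned, while CbG and CA3 overlapped.

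CbG minus CTX of *Gstp1* was -1.35 (SE 0.23), or 0.392-fold, as labelled (limma, adjusted p = 0.0413) and -1.56 (SE 0.19, adjusted p = 3.28e-05) after the exchange, lower in 3 of 3 rats. CA3 minus CTX passed in both arrangements too, at -1.46 (adjusted p = 0.0243) as labelled and -1.25 (adjusted p = 0.000362) after the exchange. As labelled it was lost without the filter (adjusted p = 0.0789) and in 10 of 15 fits that left out a rat or an array (adjusted p up to 0.479, differences from -1.62 to -1.25). CA1 minus CA3 had the opposite sign, 0.85 (SE 0.23, adjusted p = 0.141) as labelled and 0.64 (SE 0.19, adjusted p = 0.0381) after the exchange, higher in 3 of 3 rats. The call after the exchange was lost in 5 of 9 other settings, among them quantile normalization (adjusted p = 0.0618), no filter (0.148) and without the 2 arrays (0.074), and in 10 of 15 fits without a rat or an array (differences from 0.55 to 0.73). The difference between both pairs was 2.20 in either arrangement and passed in both (adjusted p = 0.0148 as labelled and 4.65e-05 after the exchange), but as labelled not in the fit without the filter (adjusted p = 0.0603). The VUL minus RES difference was under 1.5-fold, at -0.25 (SE 0.16, adjusted p = 0.709) as labelled and -0.46 (SE 0.13, adjusted p = 0.0188) after the exchange, but passed after the exchange with quantile normalization (-0.585, adjusted p = 0.00545). As labelled, the CbG minus CTX call was lost when any single array other than the 2 doubtful ones was left out (adjusted p between 0.0683 and 0.31), with the difference still between -1.15 and -1.46. Leaving out all arrays of rat 1 or of rat 2 lost it too (adjusted p = 0.786 and 0.621).

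**Figure D2:**
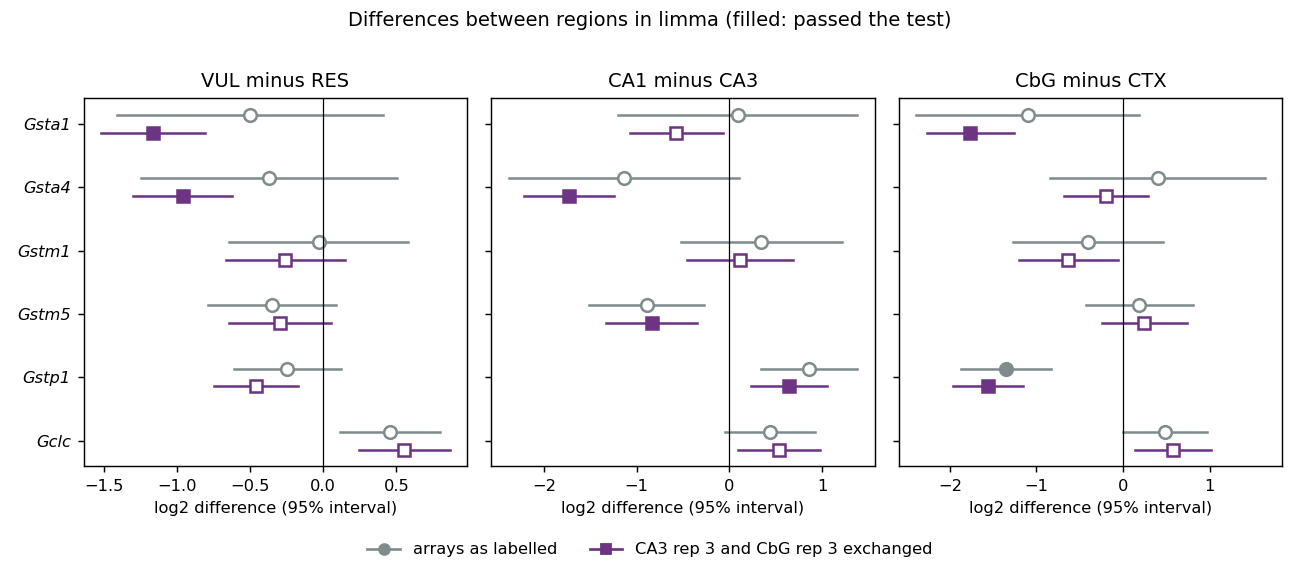
log2 differences (points) with 95% intervals (lines) from limma for the 6 tested genes, VUL minus RES on the left, CA1 minus CA3 in the middle and CbG minus CTX on the right. Circles are arrays as labelled, squares have the 2 labels exchanged, and filled symbols passed. For *Gstp1* the CA1 minus CA3 differences (0.85 and 0.64) and the CbG minus CTX differences (-1.35 and -1.56) lie on opposite sides of 0.

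*Gstt1*, of the theta class, which acts on small halogenated compounds, gave signals between 4.3 and 47.7 in the 12 arrays, or between the 2.7th and 27.6th percentile of its array. No array exceeded its median and no regional difference could be read at this brightness. *Mgst1*, the transferase anchored in the endoplasmic reticulum and outer mitochondrial membrane, had 94.4, 171.0 and 108.1 in CA1 and 656.2, 713.1 and 91.4 in CbG, against 175.2, 23.4 and 333.2 in CA3 and 317.3, 134.3 and 314.6 in CTX. Its highest signals were those of CbG replicates 1 and 2 and, next, of the array labelled CA3 replicate 3. Without the filter, CbG minus CTX was 0.73 (SE 1.04, limma, adjusted p = 0.846) as labelled and 1.36 (SE 0.65, adjusted p = 0.22) after the exchange, when CbG was higher in 3 of 3 rats and did not overlap CTX. It passed after the exchange if 50 was added to each signal (1.17, adjusted p = 0.0412).

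Among the genes of synthesis, *Gclc* was highest in CA1. The brighter probe set had 427.3, 341.3 and 470.5 in CA1 and 304.7, 303.6 and 253.4 in CbG, against 271.4, 324.2 and 305.3 in CA3 and 213.6, 226.4 and 257.1 in CTX. All CA1 arrays lay above all arrays of the other regions. CA1 minus CTX, which does not contain the doubtful arrays, was 1.14 (SE 0.21), or 2.21-fold, and passed as labelled (limma, adjusted p = 0.0229) and after the exchange (adjusted p = 0.000993). As labelled this call was lost without any single CA1 or CTX array (adjusted p between 0.057 and 0.13), without rat 1 or rat 2 (0.429 and 0.232) and without centring (0.82, adjusted p = 0.0588). VUL minus RES was 0.46 (SE 0.15, adjusted p = 0.324) as labelled and 0.56 (SE 0.14, adjusted p = 0.0105) after the exchange, or 1.47-fold, just under the fold required. After the exchange it passed without rat 2 (0.70, adjusted p = 0.00502), CA1 replicate 2 (0.66, adjusted p = 0.00428) or CA3 replicate 2 (0.65, adjusted p = 0.00587). CA3 minus CTX also passed then (0.61, adjusted p = 0.0302), but not without centring (0.28, adjusted p = 0.238), in 3 other settings and in 7 of 15 fits without a rat or an array (differences down to 0.42). CA1 minus CA3 did not pass after the exchange (0.53, 95% interval 0.09 to 0.97, adjusted p = 0.105) but did without rat 2 (0.84, adjusted p = 0.0288) or CA1 replicate 2 (0.75, adjusted p = 0.0446). As labelled it did not pass in any of these fits. CbG and CA3 did not differ beyond their spread (-0.03, 95% interval -0.47 to 0.41). The second probe set of *Gclc* did not exceed the median of any array, and its CA1 minus CA3 difference after the exchange had the other sign (-0.21, SE 0.87).

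*Gclm*, the modifier subunit, and *Gss*, which adds the glycine, were near the median of the arrays, above it in 4 and 3 of the 12. *Gclm* had 123.9, 100.6 and 89.6 in CA1 and 287.3, 141.5 and 231.1 in CbG, against 219.5, 129.1 and 119.2 in CA3 and 228.1, 136.8 and 114.7 in CTX. It was lower in CA1 than in CA3 in 3 of 3 rats and higher in CbG than in CTX in 3 of 3 rats, in both arrangements, but neither difference passed without the filter (CA1 minus CA3 -0.86, limma, adjusted p = 0.138 after the exchange). Among probe sets above the median in at least 3 arrays, CA1 minus CA3 passed after the exchange (-0.86, adjusted p = 0.0389). *Gss* had 126.9, 120.9 and 100.1 in CA1 and 263.2, 165.1 and 144.3 in CbG, against 101.8, 185.2 and 277.1 in CA3 and 124.0, 122.6 and 100.9 in CTX. CbG minus CTX of *Gss* was 0.85 (SE 0.39, adjusted p = 0.503) as labelled and 1.18 (SE 0.31, adjusted p = 0.0439) after the exchange, in a fit without the filter where 13.1% of 15866 probe sets passed. The groups did not overlap in either arrangement. This call was lost without centring (0.99, adjusted p = 0.0693) and without the 2 arrays (0.90, adjusted p = 0.222), and in most fits that left out 1 array.

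Non-neuronal transcripts differed between the regions as well. In bulk RNA of captured layers, fewer cells of a type and less RNA per cell cannot be told apart. The summed signal of 9 oligodendrocyte markers was 4445.3 to 6910.9 in CA1, 12765.7 to 17585.5 in CbG and 10192.7 to 20941.6 in CA3, against 29347.7 to 44766.8 in CTX as labelled, with *Mal* and *Ugt8* below the median in all 12 arrays. *Gstp1* and *Gsta1* were also highest in CTX. *Gstp1* was higher in CA1 than in CbG and CA3, and the oligodendrocyte sum was lowest in CA1. The sum of 14 astrocyte markers was 14814.8 to 19912.7 in CA1 and 20661.7 to 51397.8 in CbG, against 12176.8 to 26442.7 in CA3 and 27022.6 to 46508.0 in CTX, with *Fgfr3* below the median throughout. Single astrocyte markers did not all go 1 way. Of 11 tested in CbG minus CTX after the exchange, 3 passed as higher and 2 as lower, with a median difference of -0.162. CbG replicate 2 had the highest astrocyte sum (51397.8) and the highest *Mgst1* (713.1), but the lowest *Gstm1* of all arrays (147.2) and a *Gstm5* signal of 741.0. The 3 highest signals of *Gstm5* were those of CbG replicate 1 and CTX replicates 1 and 3, with astrocyte sums of 35087.8, 34986.9 and 46508.0. For 10 microglial markers the sum was 1008.5 to 1730.6 in CA1 and 1830.2 to 2278.9 in CbG, against 813.1 to 2018.9 in CA3 and 3105.9 to 7414.3 in CTX, and 7 of these markers were below the median in all arrays. The sum of 7 endothelial markers was 579.3 to 1060.4 in CA1 and 999.3 to 2731.2 in CbG, against 940.9 to 2711.9 in CA3 and 2503.0 to 4371.3 in CTX, with *Pecam1*, *Flt1*, *Abcb1a* and *Tie1* below the median throughout. Among neuronal markers, the sum of 5 Purkinje cell markers varied widely within CbG. It ran from 4194.5 to 37255.5 as labelled and from 2606.5 to 37255.5 after the exchange, beside 8059.5 to 8629.7 in CA1. As CA1 holds no Purkinje cells, this sum does not measure them outside CbG. After the exchange the oligodendrocyte sum was 14411.0 to 20941.6 in CbG and 10192.7 to 13602.9 in CA3. The astrocyte sum was then 26442.7 to 51397.8 in CbG and 12176.8 to 20661.7 in CA3. Endothelial sums were 1780.3 to 2731.2 and 940.9 to 1314.3, so these 3 did not overlap, whereas microglial sums did (1747.7 to 2278.9 and 813.1 to 2018.9). The part of any of these cells in the differences of the transferases was not tested.

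**Figure D3:**
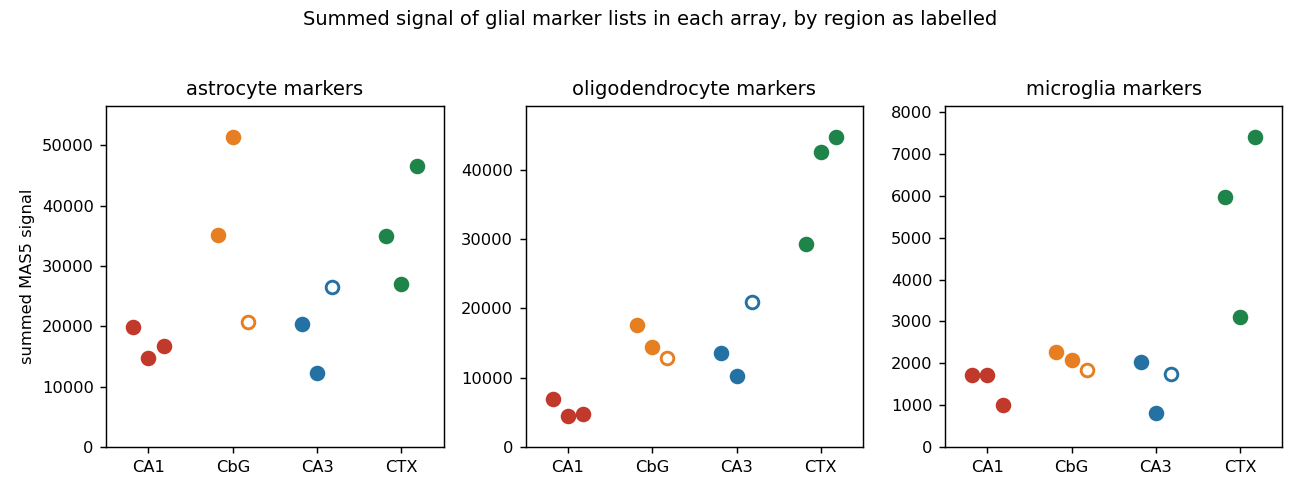
Summed MAS5 signal of the astrocyte (14), oligodendrocyte (9) and microglial (10) markers in each array, by region as labelled, with open circles for the 2 doubtful arrays. CA1 arrays had the lowest oligodendrocyte sums, 4445.3 to 6910.9, and CTX arrays the highest, 29347.7 to 44766.8.

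Of 17 further transferases and relatives on the array 9 were tested, of 19 genes for supply and recycling of glutathione 10, of 22 for its use and export 16 and of 7 regulators 4. As labelled, 0 of these 39 passed in VUL minus RES and in CbG minus CTX. *Glrx*, the cytosolic glutaredoxin that reduces mixed disulfides with glutathione, passed in CA1 minus CA3 (1.36, SE 0.21, limma, adjusted p = 0.0272). After the exchange, 1 was higher and 4 were lower in VUL than in RES neurons. CA1 minus CA3 then had 2 higher and 4 lower, and CbG minus CTX 3 higher and 8 lower. These calls were 12.8%, 15.4% and 28.2% of the 39, beside 18.5%, 13.5% and 34.0% of all probe sets, so the share called was near or below that of the array. The median VUL minus RES differences of the 4 lists after the exchange were -0.32, -0.16, 0.00 and -0.18 in the same order, beside 0.08 over all probe sets.

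The values of the next genes are those after the exchange, with those as labelled given after them. Among the transferases, *Gsto1*, the omega class enzyme that reduces dehydroascorbate, had 6927.6 to 8383.5 in CA1 and 2858.6 to 5287.5 in CbG, against 3512.3 to 4017.9 in CA3 and 2470.5 to 2648.9 in CTX after the exchange, and was higher in VUL by 0.86 (SE 0.15, limma, adjusted p = 0.000778). *Gstt3*, a theta class relative of *Gstt1*, was lower in VUL (-0.73, adjusted p = 0.00653), with at most 466.2 in CA1, CbG and CA3, against 813.9 to 875.2 in CTX. *Gstm7*, of the mu class, was lower in CbG, at 335.7 to 447.8, than in CTX, at 858.1 to 1033.0 (-1.01, adjusted p = 0.00138). *Ptgds*, a prostaglandin D synthase known from the meninges and oligodendrocytes that is not a transferase by sequence, ran between 826.3 and 15453.5 within CbG, and was lower in CA1 than in CA3 (-1.73, adjusted p = 0.0427). As labelled none of these 4 differences passed, at 0.94 for *Gsto1* (adjusted p = 0.0983), -0.68 for *Gstt3* (0.256), -0.52 for *Gstm7* (0.69) and -2.48 for *Ptgds* (0.416).

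Of the supply genes, 2 were lower in VUL after the exchange, among them *Me1*, a cytosolic source of NADPH (-1.27, SE 0.14, limma, adjusted p = 3.56e-05). *Me1* had at most 595.8 in CA1 and 384.4 in CbG, against 1490.0 to 1779.5 in CA3 and at most 691.3 in CTX. *Idh1* had 1003.3 to 1235.6 in CA1 and 824.7 to 1126.8 in CbG, against 1520.2 to 1844.5 in CA3 and 1879.3 to 2009.6 in CTX. As labelled, *Idh1* had 1119.6 to 1844.5 in CbG and 824.7 to 1743.7 in CA3. The neuronal cysteine and glutamate transporter gene *Slc1a1* was lower in CbG, at 416.9 to 668.7, than in CTX, at 889.3 to 1025.8 (-0.67, adjusted p = 0.0242). *Slc3a1* and *Ggt7* passed in the F test alone (adjusted p = 0.0089 and 0.000824). Of the genes that use glutathione, *Glrx* had 4407.0 to 4936.7 in CA1 and 1652.2 to 2017.0 in CA3 (1.38, adjusted p = 0.000372). In the other pair *Glrx* went the other way, with 1411.2 to 2048.7 in CbG and 2799.8 to 3349.3 in CTX. *Glrx2*, the mitochondrial glutaredoxin, was lower in CbG than in CTX (-0.75, adjusted p = 0.00678), and so was *Gpx3*, the secreted peroxidase (-1.06, adjusted p = 0.0157). *Glo1*, which clears methylglyoxal with glutathione, was higher in CbG than in CTX (0.62, adjusted p = 0.0289). As labelled, *Me1* in VUL minus RES (-0.34, adjusted p = 0.923) and, in CbG minus CTX, *Slc1a1* (-0.09, 0.963), *Glrx2* (-0.33, 0.726), *Gpx3* (-0.61, 0.526) and *Glo1* (0.71, 0.268) did not pass. Of the regulators, *Nfe2l1*, *Keap1* and *Maf* passed in the F test after the exchange (adjusted p = 0.0125, 0.0169 and 0.0172) and not in VUL minus RES, CA1 minus CA3 or CbG minus CTX. *Nfe2l2*, which encodes NRF2, was on the array but did not pass the filter.

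**Figure D4:**
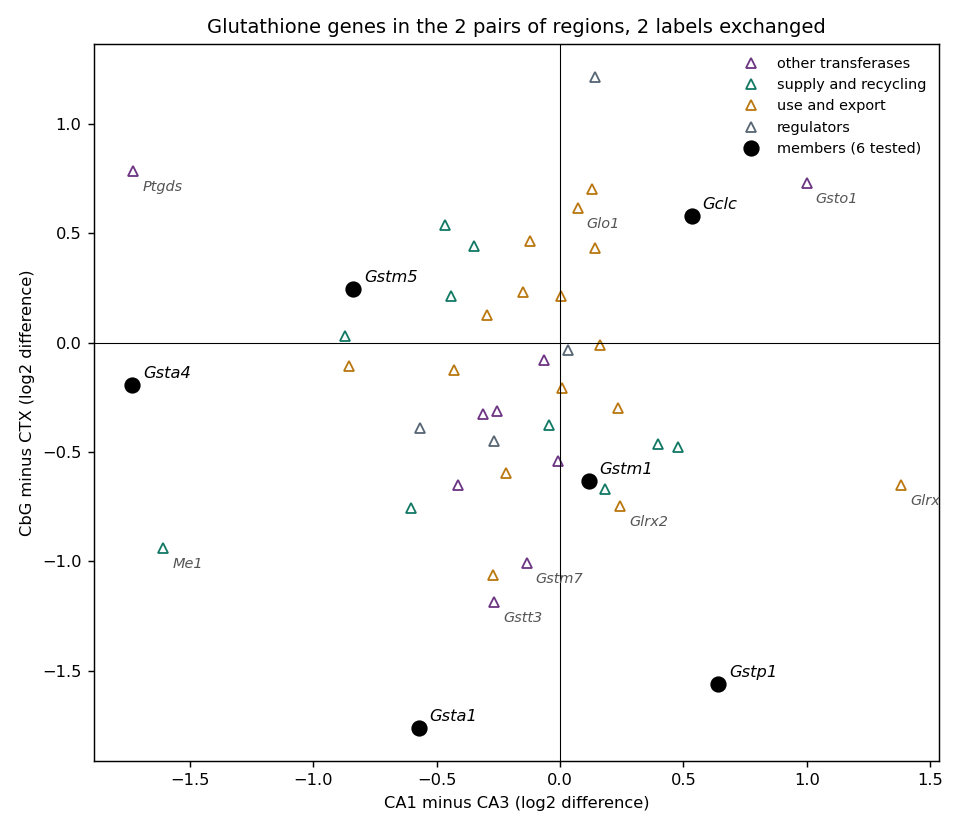
CA1 minus CA3 (horizontal) against CbG minus CTX (vertical) log2 differences from limma with the 2 labels exchanged, for the 6 tested genes of the group (black circles) and 39 other genes of the pathway (triangles, coloured by list). *Gsta4* and *Me1* lie to the left (-1.73 and -1.61) and *Gsta1* and *Gstp1* at the bottom (-1.76 and -1.56).

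The genes whose centred log2 signals followed each member most closely over the 12 arrays, a measure that uses no region label, were *Igfbp7* for *Gsta1* (Pearson r = 0.927), *Cdk14* for *Gsta4* (0.939), *Npepps* for *Gstm1* (0.945), *Calu* for *Gstm5* (0.932), *Hs3st2* for *Gstp1* (0.937), followed by *Mef2c* (0.935), and *Trpc1* for *Gclc* (0.976). Each is the highest over all tested probe sets with a gene name, the arrays share rats and regions, and the values are given as a description.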

How the data were processed

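RNA of laser-captured neurons was measured on Affymetrix RAE230A arrays after 2 cycles of amplification. The authors deposited 1 MAS5 signal intensity per probe set and array, not log transformed, after scaling every array to a target of 500 in the GeneChip Operating Software. Array medians lay between 145.5 and 199.3. Detection calls and single probes were not used here, so a filter on the array median stands in for them.

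Groups were taken from the labels. The deposited gene annotation of the array gave 12789 probe sets 1 symbol and 312 several. The 57 control probe sets were left out. The log2 of each deposited signal, less the median of its array, entered a limma 3.58.1 fit (R 4.3.3), with Benjamini-Hochberg adjustment over the 7535 probe sets tested. The methods describe samples of all 4 populations from each animal and a paired test, so arrays with the same replicate number were taken as 1 rat and the rat was a block, though no label says that the number marks the rat. Deviations from the region means did not show the pairing (mean r = -0.0366, from -0.565 to 0.0637, over 18 same-numbered pairs as labelled and 0.0205, from -0.0397 to 0.101, after the exchange). The block takes out shifts that all arrays of 1 replicate number share. With 3 arrays per region, p-values rest on the spread left over in these arrays, which all 4 regions share. The number of arrays limits the precision.

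The members and lists were chosen with earlier results of these data known. All probe sets of the 10 genes are accounted for. Of each other list up to 4 genes that passed are named, by the size of their difference, with *Idh1* added for its signals. For each gene 1 probe set was used, that with the highest mean signal. The fit was repeated uncentred, after quantile normalization, with 50 added or as a floor, with 2 other filters, with no block, with another prior, with other probe sets, as the methods' paired test, without single rats or arrays, and with the 2 doubtful arrays exchanged or left out. The fit was tested on simulated data. Figures were drawn in matplotlib 3.10.9 (Python 3.11.15).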

Additional observations from a re-analysis of the deposited data

Results flagged for a closer look

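The CA1 minus CA3 and CbG minus CTX differences differed from each other, by a test of that difference in limma, for *Gstp1* in both arrangements (2.20, adjusted p = 0.0148 as labelled and 4.65e-05 after the exchange). Without the filter the *Gstp1* difference did not pass as labelled (adjusted p = 0.0603). *Gstp1* was higher in CA1 than in CA3 and lower in CbG than in CTX in 3 of 3 rats. After the exchange the 2 differences also differed for *Gsta1* (1.19, adjusted p = 0.0188), *Gsta4* (-1.54, adjusted p = 0.00331) and *Gstm5* (-1.08, adjusted p = 0.0273), with the same sizes but adjusted p-values of 0.484, 0.353 and 0.205 as labelled. Without the 2 arrays *Gsta1* did not pass (0.80, adjusted p = 0.143). For *Gclm* all 3 rats were lower in CA1 than in CA3 and higher in CbG than in CTX. How many of all probe sets had such signs was not counted. The difference between both pairs of *Gclm*, -1.19, did not pass in the limma fit without a filter (adjusted p = 0.309 as labelled and 0.097 after the exchange).

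A single array stood far from the other 5 of its class in 2 of 44 groups examined. Both were found after the exchange. They were *Gclm* in VUL, where CbG replicate 1 had 287.3, and the second, dim probe set of *Gclc* in RES, where the array labelled CbG replicate 3 had 69.1. The cut-off flags about 5% of groups drawn from 1 population. Each class here pools 2 regions and the same arrays enter both arrangements, so this rate need not hold.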

How the results depend on the processing

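Of the 6 tested probe sets, 0 passed in VUL minus RES as labelled, 2 with the labels exchanged and 2 without the 2 arrays. In CA1 minus CA3 these counts were 0, 3 and 2, in CbG minus CTX 1, 2 and 2, and in the F test 1, 6 and 5. Without the 2 arrays 17.8%, 10.5%, 26.3% and 60.8% of all probe sets passed in the same order. Leaving out a rat or an array gave, as labelled, 0 to 2 calls in VUL minus RES, 0 to 2 in CA1 minus CA3, 0 to 2 in CbG minus CTX and 0 to 5 in the F test, where up to 16.2%, 7.79%, 21.8% and 48.8% of all passed. After the exchange CA1 minus CA3 gave 1 to 3 (5.14% to 16.6% of all). Without a filter, which raises the number of probe sets adjusted over, CbG minus CTX and the F test had 0 calls as labelled (0.214% and 0.221% of all) and CA1 minus CA3 had 1 after the exchange (2.93%). Without the replicate block the F test as labelled called 2 (7.95% of all) and, after the exchange, *Gstm5* CA1 minus CA3 (-0.84, adjusted p = 0.0618) and *Gsta1* CA1 minus CTX (-0.83, adjusted p = 0.0739) lost their calls in limma, while the other 58 differences fitted both with and without the block did not change their call. The methods' paired test over 6 pairs, run for VUL minus RES, called 0 of the 6 as labelled (2.6% of all probe sets) and 1 after the exchange, *Gsta1* (12.1%), or 0 after adjustment (2.57%). Without centring, the median CbG minus CTX difference of all probe sets after the exchange was 0.00 instead of 0.18 and 43.5% instead of 61.6% of its calls were higher in CbG. The causes of these changes were not tested.

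Signs turned only where no call had been made. Leaving out 1 rat or array gave, as labelled, VUL minus RES between -0.891 and 0.048 for *Gsta4* and between -0.25 and 0.18 for *Gstm1*. CA1 minus CA3 lay between -0.76 and 0.54 for *Gsta1* and between -0.093 and 0.777 for *Gstm1*, and CbG minus CTX between -0.20 and 0.88 for *Gsta4*, -0.03 and 0.50 for *Gstm5* and, without a filter, -0.22 and 1.96 for *Mgst1*. After the exchange CA1 minus CA3 lay between -0.05 and 0.40 for *Gstm1* and CbG minus CTX between -0.582 and 0.011 for *Gsta4*. Without the 2 arrays CA1 minus CA3 was -0.65 for *Gsta1*, which was 0.09 as labelled, and -0.076 for *Gstm1* in both arrangements, and CbG minus CTX after the exchange 0.016 for *Gsta4*. The dimmer probe set of *Gclc* gave -0.21 in CA1 minus CA3 after the exchange. Signals near the array median or below it, as for *Gclm*, *Gss* and *Gstt1*, limit what could be seen.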
